A study of Mus musculus with 16 samples.

Results

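Dach2, Cdh4, Mettl11b, Ppp1r1a, Smco1 and Rmdn1, 6 genes of mouse gastrocnemius muscle, are described here by the expression arrays of a study of Galgt2 overexpression in dystrophic muscle. They were chosen by their log2 falls against wild type, which were among the largest measured in mdx, Galgt2 transgenic or Galgt2 transgenic mdx muscle, so every value against wild type below is a description and carries no test. They are 6 of 18194 genes, and 14 of the 45101 probe sets of the array report on them: 6 on Rmdn1, 3 on Cdh4, 2 on Dach2 and 1 each on Mettl11b, Ppp1r1a and Smco1.

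The study holds 16 arrays in 3 sets. The first set has gastrocnemius of mdx mice (C57BL/10J, deficient in dystrophin), Galgt2 transgenic mice (C57BL/6J), Galgt2 transgenic mdx mice (a C57BL/10J by C57BL/6J cross) and wild-type mice (C57BL/6J), with 2 arrays per group. The second set has mdx gastrocnemius (C57BL/10J) treated with an adeno-associated virus that carries Galgt2 (AAV-Galgt2) and contralateral mdx muscle given phosphate-buffered saline (PBS), with 2 arrays each, so both of its groups lack dystrophin. All muscle came from male mice aged 2 months. The third set has 1 array each of myotubes and myoblasts of C2C12, a mouse muscle cell line, and of C2C12 stably transfected with Galgt2. The promoter of the transgene and of the virus, the time of injection, whether replicates are separate mice and whether the transfected line is 1 clone are not given in the sources used here, so errors and p-values cover no more than the spread among these arrays. Substrain differs between mdx or transgenic mdx and wild type, and also between transgenic mdx and either mdx or transgenic mice, so it cannot be told apart from the mutation or the transgene in those comparisons. The labels do not say which AAV-Galgt2 and PBS arrays come from 1 mouse, so that comparison was fitted unpaired.

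Skeletal muscle fibres hold large sets of genes that depend on the nerve and on the maturity of the fibre. Dach2 belongs to the dachshund transcription cofactors, and in mouse muscle it stands in a pathway in which loss of nerve input raises the histone deacetylase HDAC4, HDAC4 lowers Dach2, and the fall of Dach2 frees the myogenin gene and, through it, acetylcholine receptor genes. Cdh4 encodes R-cadherin, a classical calcium-dependent adhesion protein. Ppp1r1a encodes inhibitor-1, which blocks protein phosphatase 1 once protein kinase A has phosphorylated it. Mettl11b encodes a methyltransferase of protein N-termini, a relative of Ntmt1. Rmdn1 is named for its nematode relative, a microtubule-associated protein of Caenorhabditis elegans. Smco1 encodes a membrane protein with coiled-coil regions.

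In the RefSeq annotation of GRCm38.p6, used here for names and promoter windows, Dach2 lies on chromosome X, Cdh4 on 2, Mettl11b on 1, Ppp1r1a on 15, Smco1 on 16 and Rmdn1 on 4. Promoter windows, from 250 bases before to 50 bases after an annotated start, were at hand for 3 of the 6 genes, Dach2, Mettl11b and Smco1. They are shown because they were at hand. All 6 genes were low in transgenic and transgenic mdx muscle, so the choice of these 3 marks no pattern of their own. The capitals mark each E-box, the CANNTG site that myogenic factors such as myogenin bind. The windows are chrX:113297260-113297559 (plus strand) for Dach2, chr1:163725183-163725482 (minus strand) for Mettl11b and chr16:32271230-32271529 (plus strand) for Smco1, each read 5′ to 3′.
Dach2: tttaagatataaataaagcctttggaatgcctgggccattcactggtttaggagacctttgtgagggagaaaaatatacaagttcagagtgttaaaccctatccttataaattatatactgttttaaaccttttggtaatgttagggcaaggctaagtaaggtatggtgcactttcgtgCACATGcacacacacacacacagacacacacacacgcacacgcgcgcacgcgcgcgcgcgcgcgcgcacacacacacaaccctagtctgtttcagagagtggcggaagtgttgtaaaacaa
Mettl11b: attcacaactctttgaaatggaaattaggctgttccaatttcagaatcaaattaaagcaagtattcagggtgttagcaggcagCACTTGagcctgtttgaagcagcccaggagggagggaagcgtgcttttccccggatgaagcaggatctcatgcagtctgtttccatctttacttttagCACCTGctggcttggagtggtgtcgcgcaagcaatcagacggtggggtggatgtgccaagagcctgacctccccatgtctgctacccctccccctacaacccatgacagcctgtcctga
Smco1: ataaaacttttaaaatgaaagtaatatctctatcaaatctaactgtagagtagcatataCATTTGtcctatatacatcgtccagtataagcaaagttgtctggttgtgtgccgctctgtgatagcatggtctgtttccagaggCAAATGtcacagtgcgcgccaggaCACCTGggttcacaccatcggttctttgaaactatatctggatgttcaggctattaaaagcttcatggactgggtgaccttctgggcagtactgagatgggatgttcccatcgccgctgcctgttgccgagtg
The Dach2 window holds 1 E-box, the Mettl11b window 2 and the Smco1 window 3, and a second annotated Dach2 start (chrX:113298006-113298305, plus strand) has 0. An E-box on either strand occurs in 72.3% of the 32851 windows of the table, so its presence is common. The form CACCTG stands 69 bases before the annotated start in Mettl11b and 83 bases before it in Smco1. Of the other motifs searched on both strands, the M-CAT motif CATTCC (14.7%) and the TATA box TATAAA (13.6%) matched in the first Dach2 window, and the MEF3 motif TCAGGTT (4.07%) matched in none of the 4 windows. A loose pattern of the outer letters of a MEF2 site with any middle (3.69% of windows) matched CTAACTGTAG in the Smco1 window, whose middle letters are not the A and T run of a MEF2 site. A match is a run of letters, not evidence of a bound site.

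The labels were checked first. B4galnt2, the mouse gene also called Galgt2, had log2 intensities of 13.17 to 13.34 in the 4 transgenic and transgenic mdx arrays, 3.86 and 7.78 in mdx replicates 1 and 2 and 4.61 and 4.94 in wild type, so mdx replicate 2 stood above its group. Dmd, the dystrophin gene, had 8.52 and 8.13 in mdx arrays, 11.16 and 10.98 in those of transgenic muscle and 9.86 and 9.87 in those of transgenic mdx muscle, against 11.14 and 11.16 in wild type. For Dmd the transgenic mdx arrays thus lay between those of mdx and wild type, and the reason was not tested. Values without mdx replicate 2 are given with the mdx results of each gene. Striated muscle genes such as Ckm and Acta1 were strongly expressed in all 12 muscle arrays, with a mean log2 intensity of the 10 listed genes between 11.38 and 12.94. Replicate arrays correlated at r from 0.977 to 0.993 over log2 values of all genes. Array medians were 57.69 to 63.95 in the first set and 25.35 to 25.71 in the second, and levels were compared only within a set. In transgenic mdx replicate 2 the log2 difference between the 3′ and 5′ Gapdh probe sets, which grows as RNA is shortened, was 1.23, against 0.18 to 0.48 in the rest of its array set.

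Against wild type, the 6 genes fell into patterns that differed in how much of the fall was already present in mdx muscle without the transgene. In the brightest probe set of each, Dach2 had most of its fall in mdx itself and Rmdn1 was lowest there. Cdh4 and Ppp1r1a were lower again with the transgene, and Mettl11b and Smco1 lost most of their signal in muscle that carried the transgene. By the threshold of the fit (limma, Benjamini-Hochberg adjusted p under 0.05), 4 genes were past it in mdx, Mettl11b and Smco1 not being among them, and 6 of 6 in transgenic and in transgenic mdx muscle, which describes the choice of the genes and tests nothing. Over all genes the same threshold called 1.69% lower in mdx, 1.03% lower in transgenic and 2.36% lower in transgenic mdx muscle, and these shares are given for scale only because the 3 comparisons chose the genes and share the wild-type arrays. In whole muscle, fewer fibres of a kind and less RNA per fibre cannot be told apart.

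**Figure D1:**
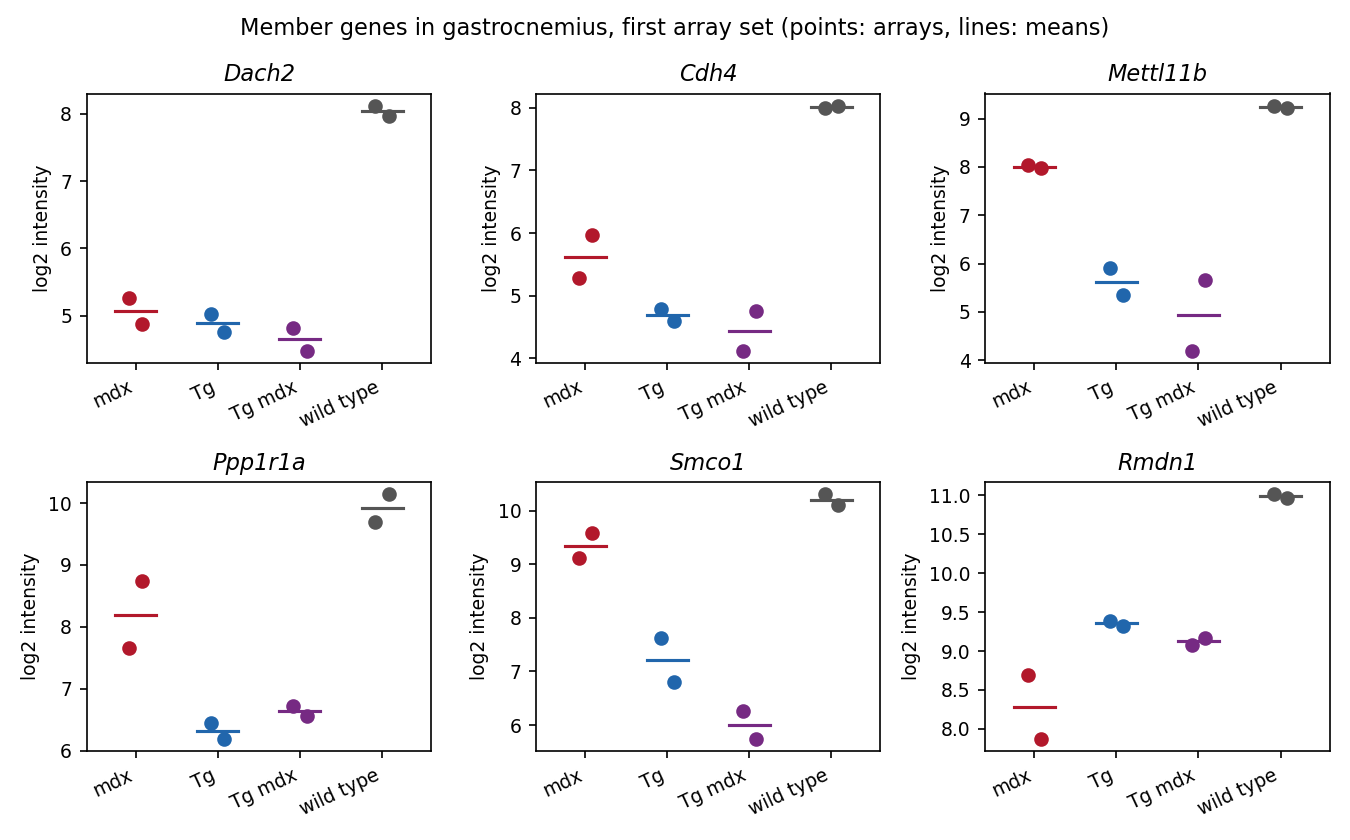
Log2 intensity (y axis) of the brightest probe set of each member gene in mdx, transgenic (Tg), transgenic mdx (Tg mdx) and wild-type gastrocnemius, with 1 point per array (2 per group) and a line at the group mean. Wild type is the highest group in every panel, Dach2 is about as low in mdx as with the transgene, Mettl11b and Smco1 are nearer to wild type in mdx and low with the transgene, and Rmdn1 is lowest in mdx.

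Dach2, the myogenin repressor, was the largest fall of all 18194 genes in mdx against wild type. Probe set 1449823_at had log2 intensities of 5.26 and 4.87 in mdx arrays, 5.02 and 4.76 in those of transgenic muscle and 4.82 and 4.48 in those of transgenic mdx muscle, against 8.12 and 7.97 in wild type. All 6 arrays of the altered groups lay far below both wild-type arrays and close to each other. In these 6 arrays the probe set stood between the 30.5 and 41.3 percentile of its array. Whether the bottom of the scale hides differences among the altered groups was not tested. The log2 differences from wild type were -2.98 ± 0.41 in mdx (standard error, n = 2 per group), -3.15 ± 0.41 in transgenic and -3.39 ± 0.41 in transgenic mdx muscle, which is 7.89-fold, 8.90-fold and 10.5-fold lower. The mdx value was -2.79 without mdx replicate 2. The second Dach2 probe set, 1458012_at, is dimmer and gave nearly the same differences, from -2.95 in mdx to -3.35 in transgenic mdx muscle, although it lay below the lower quartile of its array's intensities in 6 of 12 muscle arrays, where the size of a fall is bounded by the bottom of the scale.

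Cdh4, the adhesion gene, was low in all altered groups and lower with the transgene than without it. Its brightest probe set, 1456397_at, had log2 intensities of 5.28 and 5.96 in mdx arrays, 4.79 and 4.60 in those of transgenic muscle and 4.12 and 4.75 in those of transgenic mdx muscle, against 8.0 and 8.03 in wild type. Neither mdx array overlapped with a transgenic or transgenic mdx array. Over all genes, 22.3% were lower without overlap in transgenic mdx than in mdx muscle, and the share for transgenic against mdx muscle was not counted. The differences from wild type were -2.40 ± 0.29 in mdx, or -2.74 without mdx replicate 2, -3.32 ± 0.29 in transgenic and -3.58 ± 0.29 in transgenic mdx muscle. The other Cdh4 probe sets were close to the bottom of the scale. Probe set 1449422_at, below the lower quartile of its array in 10 of 12 muscle arrays, gave -1.40 in mdx, -1.55 in transgenic and -1.82 in transgenic mdx muscle, and 1449637_at, below it in 11 of 12, gave -0.15, -0.79 and -0.64 in the same order. With all 3 averaged, Cdh4 differed by -1.32 in mdx, -1.89 in transgenic and -2.01 in transgenic mdx muscle.

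Ppp1r1a, the phosphatase inhibitor, took an intermediate place in mdx muscle, where its replicates were far apart. The log2 intensities of 1422605_at were 7.66 and 8.73 in mdx arrays, 6.44 and 6.19 in those of transgenic muscle and 6.73 and 6.55 in those of transgenic mdx muscle, against 9.70 and 10.14 in wild type. Both mdx arrays lay between those of wild type and those of the transgenic groups. It differed from wild type by -1.72 ± 0.35 in mdx, or -2.26 without mdx replicate 2, by -3.61 ± 0.35 in transgenic (12.2-fold lower) and by -3.28 ± 0.35 in transgenic mdx muscle.

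Mettl11b, the N-terminal methyltransferase, had the largest fall of all genes in both transgenic and transgenic mdx muscle against wild type. Probe set 1457894_at had log2 intensities of 8.03 and 7.97 in mdx arrays, 5.91 and 5.34 in those of transgenic muscle and 4.20 and 5.67 in those of transgenic mdx muscle, against 9.27 and 9.22 in wild type. The transgenic mdx replicates were the most unequal pair, with a standard deviation of 1.04. Differences from wild type were -1.24 ± 0.46 in mdx, or -1.21 without mdx replicate 2, -3.62 ± 0.46 in transgenic and -4.31 ± 0.46 in transgenic mdx muscle (19.9-fold lower). Without transgenic mdx replicate 1 the last was -3.58, and without replicate 2, the array of high Gapdh 3′ to 5′ difference, it was -5.04. In transgenic mdx replicate 1 Mettl11b lay at the 26.2 percentile of its array, and the brightest Cdh4 probe set at the 25.0 percentile, so these falls too are near the bottom of the scale.

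Smco1, the coiled-coil membrane protein gene, followed the same order with less fall in mdx. The log2 intensities of 1432107_at were 9.11 and 9.59 in mdx arrays, 7.63 and 6.81 in those of transgenic muscle and 6.27 and 5.74 in those of transgenic mdx muscle, against 10.31 and 10.11 in wild type. No array of 1 group overlapped with another group, and the order ran from transgenic mdx through transgenic and mdx to wild type. Over all genes, 21.6%, 27.1% and 24.2% were lower without overlap in mdx, transgenic and transgenic mdx muscle against wild type. That share was 22.3% in transgenic mdx against mdx and 9.48% in transgenic mdx against transgenic muscle. The differences from wild type were -0.86 ± 0.30 in mdx (1.81-fold lower), or -1.09 without mdx replicate 2, -2.99 ± 0.30 in transgenic and -4.21 ± 0.30 in transgenic mdx muscle (18.4-fold lower).

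Rmdn1, the microtubule regulator relative, had the reverse order in its brightest probe set, with its lowest values in mdx muscle. Probe set 1457999_at had log2 intensities of 8.70 and 7.87 in mdx arrays, 9.39 and 9.32 in those of transgenic muscle and 9.08 and 9.17 in those of transgenic mdx muscle, against 11.02 and 10.96 in wild type. Both mdx arrays were below every other array of the set. The differences from wild type were -2.71 ± 0.31 in mdx, or -2.29 without mdx replicate 2, -1.63 ± 0.31 in transgenic and -1.86 ± 0.31 in transgenic mdx muscle. The order was not the same in every Rmdn1 probe set. Probe set 1452300_at gave -2.11 in mdx and -2.25 in transgenic mdx muscle, and 1418658_at gave -0.87 in both. The 6 Rmdn1 probe sets did not give 1 size of fall either. In mdx they ranged from -0.87 for 1418658_at, the probe set with the second highest mean, to -2.79 for 1457017_at, in transgenic muscle from -0.60 for 1438034_at to -1.64 for 1457017_at, and in transgenic mdx muscle from -0.87 for 1418658_at to -2.25 for 1452300_at. All 6 were in the upper part of the intensity scale or near its middle, so the bottom of the scale does not limit these values. Which part of the Rmdn1 transcript each probe set reports on was not analysed here.

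**Figure D2:**
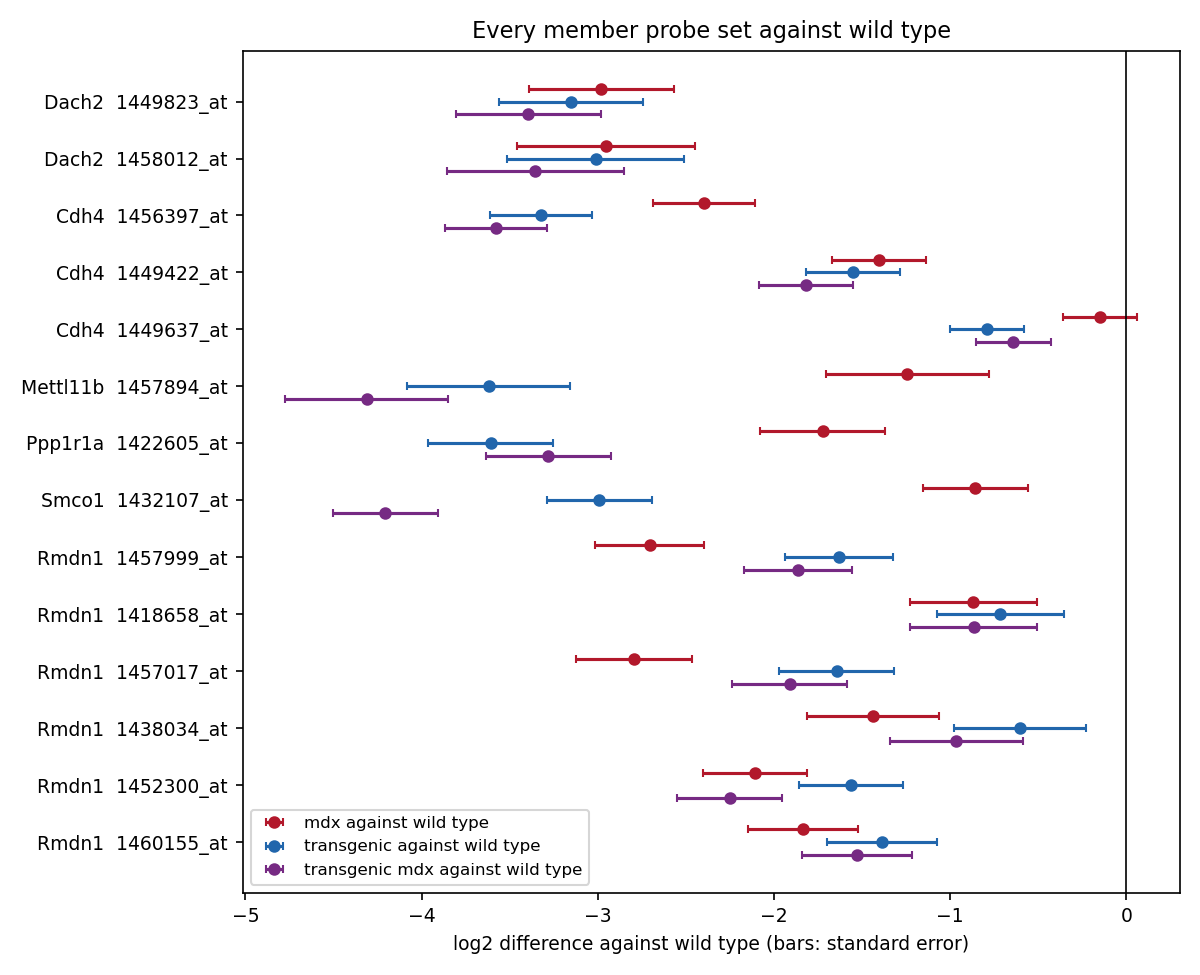
Log2 difference against wild type (x axis) of each of the 14 member probe sets (rows) in mdx, transgenic and transgenic mdx muscle, with bars of 1 standard error from the fit over 12 muscle arrays. The pairs of Dach2 values coincide near -3, the 3 Cdh4 probe sets shrink towards 0 as they get dimmer, and the 6 Rmdn1 probe sets spread from -0.60 to -2.79.

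Within the first set, transgenic mdx muscle can also be set against mdx and against transgenic muscle, as a description because these arrays took part in choosing the genes. Set against mdx, Smco1 differed by -3.35 ± 0.30 and Mettl11b by -3.07 ± 0.46, Ppp1r1a by -1.56 ± 0.35, Cdh4 by -1.18 ± 0.29 and Dach2 by -0.41 ± 0.41, while Rmdn1 was the 1 gene on the other side at 0.84 ± 0.31. The Rmdn1 value rested on its probe sets unequally, with a range from -0.14 to 0.88, and of the 6 only 1457999_at and 1457017_at had groups that did not overlap, where 21.8% of all genes did not overlap in that direction. Without mdx replicate 2 the differences were 0.43 for Rmdn1, -1.02 for Ppp1r1a, -0.84 for Cdh4, -0.61 for Dach2, -3.10 for Mettl11b and -3.11 for Smco1. With all probe sets of a gene averaged, Rmdn1 gave 0.39 and Cdh4 -0.70. Against transgenic muscle without the mdx mutation the differences were smaller: Smco1 gave -1.21 ± 0.30 and Mettl11b -0.69 ± 0.46, and Cdh4, Dach2 and Rmdn1 lay between -0.23 and -0.26. Ppp1r1a gave 0.33 ± 0.35, a difference smaller than its standard error, with groups that did not overlap, as for 20.4% of all genes in that direction. For Dach2, Cdh4 and Mettl11b the arrays of transgenic mdx and transgenic muscle overlapped, and without transgenic mdx replicate 1 the difference turned to 0.06 for Cdh4 and 0.04 for Mettl11b.

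The genes were taken from a ranking with no fixed threshold, so their neighbours in it show what lies just outside. In mdx against wild type, Dach2 ranked 1, Rmdn1 3, Cdh4 5 and Ppp1r1a 33 among 308 called falls. The largest falls there of genes outside the group were Dmd itself (-2.82), Neto2 (-2.58) and Kcnab1 (-2.40), a potassium channel subunit that stood next after Cdh4 (-2.40). In transgenic muscle Mettl11b ranked 1, Ppp1r1a 2, Cdh4 4, Dach2 6, Smco1 9 and Rmdn1 66 among 187 called falls, with Tafa4 (-3.42), 2310065F04Rik (-3.19) and Tiam1 (-3.12), an activator of Rac, as the largest others. In transgenic mdx muscle Mettl11b ranked 1, Smco1 2, Cdh4 5, Dach2 7, Ppp1r1a 8 and Rmdn1 79 among 430, and Tlcd3b (-3.77), Kcng4 (-3.75) and Tafa4 (-3.57) were the largest others. By rank, Rmdn1 thus stood higher in the mdx list than in the transgenic lists, and Mettl11b and Smco1 were at or near the top of the transgenic lists.

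Marker genes of other cell types and of immature fibres changed in the same arrays as the 6 genes. Of 10 genes of new and regenerating fibres 8 rose in mdx, 7 rose and 1 fell in transgenic and 7 rose and 1 fell in transgenic mdx muscle, and their mean log2 intensity was 10.29 and 10.34 in mdx arrays, 10.26 and 9.71 in those of transgenic muscle and 10.08 and 10.16 in those of transgenic mdx muscle, against 7.62 and 7.40 in wild type. Of 13 macrophage genes 8 rose in mdx, 2 in transgenic and 7 in transgenic mdx muscle, with mean log2 intensities of 10.24 and 10.11, 9.05 and 8.62, and 9.31 and 9.23 in the same order, against 8.02 and 7.93 in wild type. Over all genes 3.75%, 2.12% and 4.91% were called higher in these comparisons (limma, adjusted p under 0.05). The part of these shifts in the falls of the 6 genes was not tested. The mean of 10 striated muscle genes, of which 1 fell in transgenic mdx muscle and 0 passed otherwise, was 12.84 and 12.79 in mdx arrays, 12.66 and 12.95 in those of transgenic muscle and 12.70 and 12.61 in those of transgenic mdx muscle, against 12.80 and 12.94 in wild type. Of the 7 fibroblast, 5 Schwann cell and nerve, 5 adipocyte and 2 red blood cell genes measured, 0 passed in any of the 3 comparisons. Of 7 endothelial genes 2 fell in transgenic mdx muscle and 0 passed in the other comparisons, and of 7 skin genes 1 was lower in mdx and 2 were higher in each transgenic group.

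The genes that act around Dach2 are listed separately, since they are known in mouse muscle to respond to loss of nerve input. Of 18 measured denervation response genes, 4 rose in mdx, 3 in transgenic and 7 in transgenic mdx muscle and 0 fell, with median log2 differences of 0.61, 0.90 and 1.13, against medians over all genes of 0.01, -0.05 and 0.01. Myog, the myogenin gene, rose by 1.95 ± 0.46 in mdx (adjusted p = 0.0374), by 2.32 ± 0.46 in transgenic (adjusted p = 0.0226) and by 2.08 ± 0.46 in transgenic mdx muscle (adjusted p = 0.0237, limma). Chrna1, the acetylcholine receptor alpha subunit, rose by 2.17 ± 0.38, 2.29 ± 0.38 and 2.30 ± 0.38 in that order. Chrnd, the delta subunit, rose by 2.96 ± 0.31 in transgenic and 2.80 ± 0.31 in transgenic mdx muscle. Ankrd1, a stretch-responsive ankyrin repeat gene, rose by 2.78 ± 0.58 in mdx and 3.38 ± 0.58 in transgenic mdx muscle. Chrng, the fetal gamma subunit, rose by 1.79 ± 0.34 in mdx, and the transcription factor Runx1 by 2.42 ± 0.56 in transgenic mdx muscle. Several of these genes are also markers of new fibres, which rose in the same arrays, and the part of new fibres in these rises was not tested. Chrnd in both transgenic comparisons and Chrna1 in transgenic mdx muscle passed in all 12 fits that omit 1 array. Myog lost its call without any 1 of the 4 arrays compared in mdx (and without either AAV-Galgt2 array, which enters through the shared variance) and in transgenic muscle, and without either wild-type array or transgenic mdx replicate 1 in transgenic mdx muscle, at log2 differences from 1.31 to 2.69. Chrna1 lost it without either wild-type array in mdx and transgenic muscle, and without mdx or transgenic replicate 2, at 2.02 to 2.38. Ankrd1 lost it in mdx when mdx replicate 2 or either wild-type array was omitted (2.34 to 2.98) and in transgenic mdx muscle without wild-type replicate 2 (3.17), Chrng without wild-type replicate 1 or mdx replicate 2 (1.42 to 1.58), and Runx1 without either wild-type array or transgenic mdx replicate 1 (1.45 to 2.84).

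Dach2 also belongs to a network of transcription cofactors that includes the Eya proteins. Of 11 measured genes of this network 2 fell in mdx, 0 passed in transgenic and 1 fell in transgenic mdx muscle, and the median log2 differences were -0.15, -0.18 and -0.08. Eya1, a cofactor that turns on fast fibre genes in mouse muscle, fell by 1.92 ± 0.18 on the log2 scale in mdx (adjusted p = 0.00171, limma), with a call that held with each array left out, and by 0.80 ± 0.18 in transgenic mdx muscle, where it was lost without any of the 4 arrays compared (-0.84 to -0.76). In transgenic muscle Eya1 gave -0.67 ± 0.18 (adjusted p = 0.0847). Eya4 fell by 1.43 ± 0.33 in mdx and lost the call without either wild-type or AAV-Galgt2 array or mdx replicate 2 (-1.47 to -0.87). Eya1 and Eya4, like the brightest Rmdn1 probe set, were lower in mdx than in transgenic mdx muscle. Their log2 differences of transgenic mdx against mdx were 1.12 ± 0.18 and 1.80 ± 0.33.

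Genes listed around the other members are given next. Over all genes, 1.69% were called lower in mdx, 1.03% in transgenic and 2.36% in transgenic mdx muscle (limma, adjusted p under 0.05). The shares called higher were 3.75%, 2.12% and 4.91% in that order, and both sets of shares are the scale for the counts of each list. Among 24 genes of protein phosphatase 1 and glycogen control, around Ppp1r1a, 1 fell in mdx, 1 in transgenic and 3 in transgenic mdx muscle and 0 rose, with medians of -0.08, -0.20 and -0.19. Phkb, the beta subunit of phosphorylase kinase, was the gene called in all 3, by -0.99 ± 0.25, -1.74 ± 0.25 and -1.71 ± 0.25. Its call in mdx was lost without any of the 4 arrays compared or of the 4 arrays of the second set (-1.09 to -0.89). In transgenic mdx muscle Phka1, the alpha subunit, fell by 1.36 ± 0.31 and Pygm, muscle glycogen phosphorylase, by 0.82 ± 0.20, and both lost the call without either wild-type array, transgenic mdx replicate 1 or either AAV-Galgt2 array, and Pygm also without transgenic mdx replicate 2 or either transgenic array (-1.37 to -0.84 for Phka1 and -0.92 to -0.71 for Pygm).

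Of 14 cadherins and catenins, around Cdh4, none passed in mdx or in transgenic muscle (0 of 14 each), while 1 rose and 1 fell in transgenic mdx muscle. Cdh15, the M-cadherin of muscle cells, gave 0.74 ± 0.24 in mdx (adjusted p = 0.11), 1.01 ± 0.24 in transgenic (adjusted p = 0.0556) and 0.99 ± 0.24 in transgenic mdx muscle (adjusted p = 0.0368, limma), so its mean lay on the opposite side to Cdh4 in all 3. Ctnna3, an alpha catenin, fell by 1.91 ± 0.38 in transgenic mdx muscle. The call of Cdh15 was lost without either wild-type or AAV-Galgt2 array or transgenic mdx replicate 2 (0.78 to 1.01), and that of Ctnna3 without wild-type or transgenic mdx replicate 2 (-1.70 to -1.44).

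A further list holds relatives of Mettl11b, Rmdn1 and Smco1 together with methyltransferases and microtubule-associated genes of other families. Of its 16 measured genes, 1 fell in mdx, 1 in transgenic and 3 in transgenic mdx muscle and 0 rose. Rmdn2, of the Rmdn1 family, fell by 1.24 ± 0.28 in mdx, and lost its call without any of the 4 arrays compared or either AAV-Galgt2 array (-1.35 to -1.13). Smyd2, a lysine methyltransferase, fell, with differences of -2.03 ± 0.34 in transgenic and -1.93 ± 0.34 in transgenic mdx muscle, and lost the call without either wild-type array, transgenic replicate 2 or transgenic mdx replicate 1 (-2.07 to -1.64). Mettl21e, a further methyltransferase gene, fell by 2.81 ± 0.40 in transgenic mdx muscle with each array left out in turn, and Mtus1 by 0.77 ± 0.20, a call that 10 of the 12 omissions ended (-0.94 to -0.59).

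Adult fast fibre genes, the bulk of gastrocnemius transcripts, had medians near that of all genes in mdx. Of 19 such genes 0 passed in mdx, where the median was -0.00 and Mylk2 had the smallest p (-0.31 ± 0.24, adjusted p = 0.552), and 2 fell in each transgenic comparison, where the medians were -0.15 and -0.23. Those were Mylk2, the skeletal myosin light chain kinase, at -1.38 ± 0.24 and -1.99 ± 0.24, and Gpd1, a glycerol phosphate dehydrogenase, at -1.70 ± 0.39 and -2.28 ± 0.39 in transgenic and transgenic mdx muscle. Myh4, the fast IIb myosin heavy chain, gave -0.10 ± 0.18, -0.25 ± 0.18 and -0.30 ± 0.18. Some genes of this list lay near the top of the scale, such as Tnni2 and Tnnc2 with mean log2 intensities of 14.00 and 13.97 in wild type. Whether the top of the scale limits such differences was not tested. In transgenic muscle Mylk2 lost its call without wild-type replicate 2 or transgenic replicate 1 (-1.20 to -1.16) and Gpd1 in 10 of 12 omissions (-2.07 to -1.32), and in transgenic mdx muscle Gpd1 lost it without wild-type replicate 2 (-1.96).

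**Figure D3:**
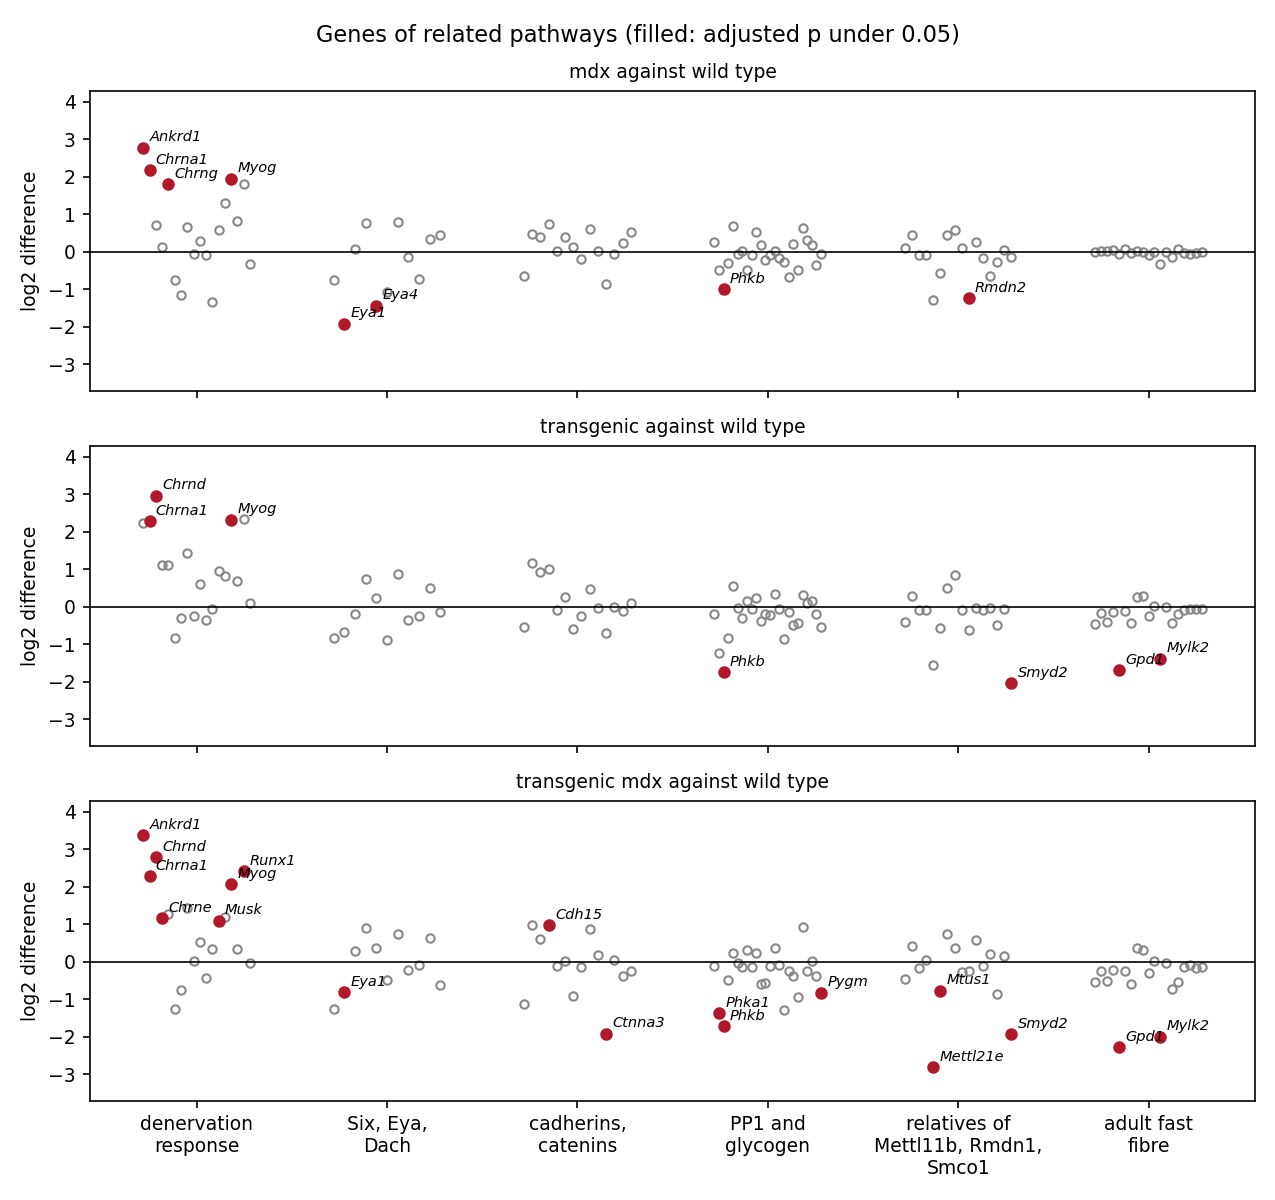
Log2 difference (y axis) of each measured gene of 6 lists (x axis) in mdx, transgenic and transgenic mdx muscle against wild type, with filled and named points for an adjusted p under 0.05 and open points for the rest. Denervation response genes are the list with most rises (4, 3 and 7 calls), and adult fast fibre genes lie close to 0 in mdx.

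Genes were ranked by likeness to each member over the 8 arrays of the first set, by Pearson r of log2 intensities. Only genes outside the members with a mean above the median of all genes in these arrays were ranked, so dimmer genes were not considered. The ranking is a description over arrays that form 4 groups. Closest to Dach2 were Hlf (r = 0.986), a circadian bZIP transcription factor that differed by -1.97, -2.21 and -2.37 in mdx, transgenic and transgenic mdx muscle against wild type, and Prps1l3 (0.985). Cdh4 was followed by Plaat1 (0.992) and Abcb4 (0.986), Mettl11b by Cep19 (0.982) and Afdn (0.975), Ppp1r1a by Pfn2 (0.986) and Dnajc27 (0.986), Smco1 by Mylk4 (0.992) and Pm20d2 (0.987), and Rmdn1 by Ctcf (0.985) and Ago4 (0.978). A similar shape did not mean a similar size: Pfn2 differed from wild type by -0.11 to -0.21 in the 3 comparisons, and Ctcf by -0.18 to -0.34. In AAV-Galgt2 against PBS muscle none of these 12 genes passed, with adjusted p from 0.638 to 0.977 (limma). No gene of the table passed there, so this says nothing particular about the 12.

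The second array set did not take part in choosing the genes, and so allows a test: whether Galgt2 delivered to mdx muscle by virus changed them. None of the 6 genes passed in AAV-Galgt2 against PBS muscle (limma, adjusted p from 0.589 to 0.972), nor did any gene of the table, 0% of 18194 being called higher or lower beside 1506 at an unadjusted p under 0.05. Over all 45037 probe sets tested 0% were called, and the 14 member probe sets had adjusted p from 0.711 to 0.997. B4galnt2, the gene delivered, was not called either, at log2 intensities of 10.54 and 10.56 with AAV-Galgt2, against 5.27 and 4.26 with PBS. A missing call in this comparison is therefore no evidence that a gene was unchanged.

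Rmdn1 and Dach2 had the largest differences, and in both PBS replicate 1 was the high array. Rmdn1 (1457999_at) had log2 intensities of 8.80 and 8.44 with AAV-Galgt2, against 9.67 and 8.95 with PBS, a difference of -0.69 ± 0.31 (95% interval -1.37 to -0.02, adjusted p = 0.589, limma). Its 6 probe sets ran from -0.44 to -0.69, a narrower range than against wild type. Dach2 (1449823_at) had 5.92 and 6.13 with AAV-Galgt2, against 7.58 and 6.02 with PBS, a difference of -0.78 ± 0.41 (95% interval -1.68 to 0.12, adjusted p = 0.656). The AAV-Galgt2 arrays lay on either side of PBS replicate 2 and below PBS replicate 1. Without PBS replicate 1 the Dach2 difference was 0.0008, and without PBS replicate 2 it was -1.56 and passed (adjusted p = 0.0434, limma), so it rests on which PBS array is kept.

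Mettl11b had 6.80 and 6.22 with AAV-Galgt2, against 7.44 and 6.46 with PBS, and Ppp1r1a had 6.26 and 6.47 with AAV-Galgt2, against 6.93 and 6.24 with PBS. The differences were -0.44 ± 0.46 (95% interval -1.45 to 0.57) and -0.22 ± 0.35 (-1.0 to 0.56), and both turned to the other side, 0.05 and 0.13, without PBS replicate 1. Smco1 had 7.54 and 7.66 with AAV-Galgt2, against 7.75 and 7.67 with PBS, at -0.11 ± 0.30 (-0.77 to 0.55). Cdh4 had 4.39 and 4.86 with AAV-Galgt2, against 4.51 and 4.49 with PBS, at 0.12 ± 0.29 (-0.52 to 0.76). Levels of these genes and of B4galnt2 cannot be compared between the sets.

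The PBS arrays themselves differed in the levels of marker genes. The mean log2 intensity of the 10 new fibre genes was 8.86 and 9.12 with AAV-Galgt2, against 7.79 and 8.75 in PBS replicates 1 and 2, and that of the 13 macrophage genes was 9.10 and 8.85 with AAV-Galgt2, against 8.55 and 9.35 with PBS. PBS replicate 1, with the highest Dach2, Mettl11b, Ppp1r1a, Smco1 and Rmdn1 values of the set, thus had the lowest values of both marker lists, and the part of this in the differences was not tested. The 5 adipocyte genes had a median difference of -1.45 with AAV-Galgt2, and 0 of 5 passed. The 7 endothelial genes had a median difference of 0.73, with positive differences for all 7, among them Cdh5, and 0 of 7 passed. Of the pathway lists, 0 of 101 genes passed in this comparison. The smallest p values belonged to Hdac4 (1.16 ± 0.33, adjusted p = 0.427), Ski (0.88 ± 0.33, adjusted p = 0.516), Cdh5 (1.04 ± 0.29, adjusted p = 0.395), the glycogen synthase Gys1 (1.13 ± 0.29, adjusted p = 0.368), Map4 (0.77 ± 0.22, adjusted p = 0.41) and Myh2 (0.54 ± 0.20, adjusted p = 0.516, limma), 1 from each list. The 18 denervation response genes had a median of 0.49, against 0.03 over all genes.

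**Figure D4:**
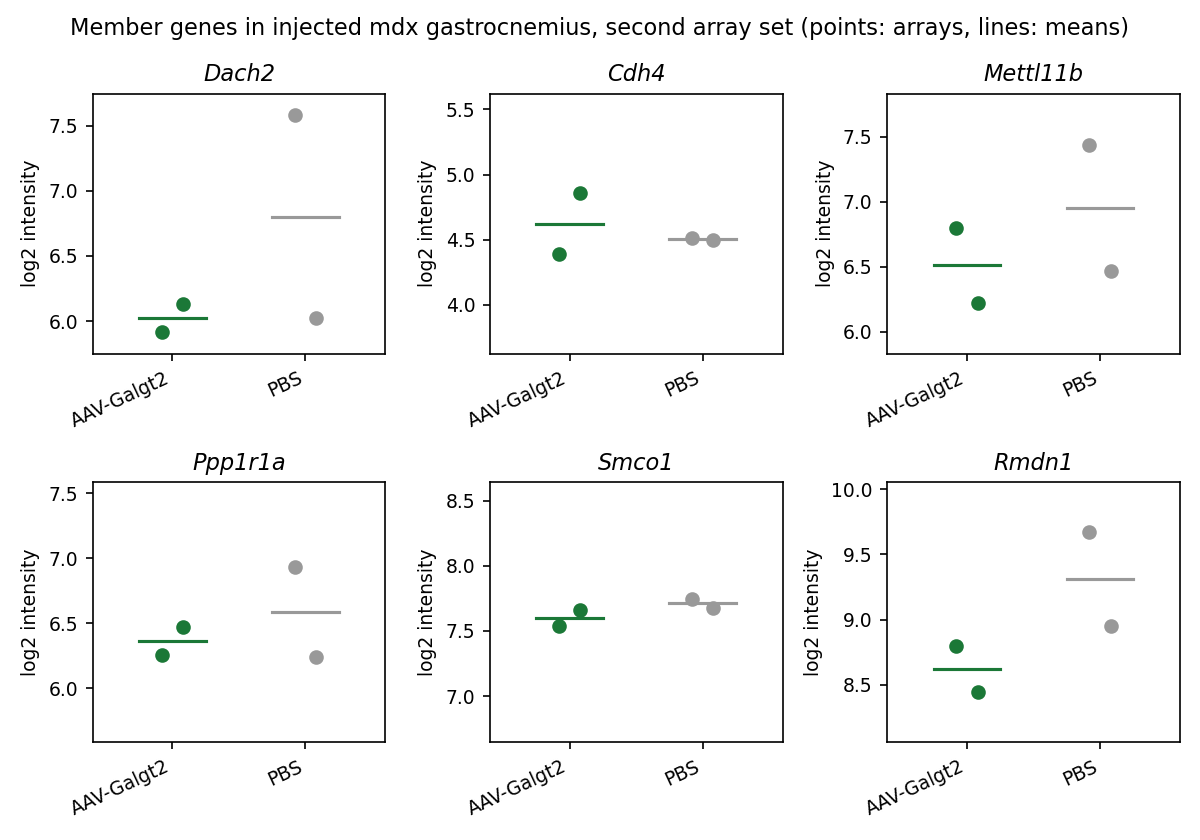
Log2 intensity (y axis) of each member gene in mdx gastrocnemius given AAV-Galgt2 or PBS, with 1 point per array (2 per group) and a line at the group mean. The PBS points lie far apart for Dach2, at 7.58 and 6.02, and the groups do not overlap for Smco1 and Rmdn1, as for 18.6% of all genes in that direction. None of the 6 passed the test.

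In the cell lines, which have 1 array per condition and allow no test, Rmdn1 was the 1 member with a strong signal. Its log2 intensity was 8.02 in C2C12-Galgt2 myotubes and 7.73 in C2C12-Galgt2 myoblasts, and 7.93 and 8.12 in the arrays labelled C2C12 myotube and myoblast. Between the 17.3 and 25.5 percentile of its array's intensities, Mettl11b had 4.36, 4.05, 4.39 and 4.11 in the same order, and Smco1, between 13.6 and 27.2, had 4.29, 4.49, 4.09 and 3.81. Both were thus close to the bottom of the scale in cultured muscle cells while they stood between the 82.5 and 89.8 percentile in wild-type muscle. Ppp1r1a had 5.29, 5.64, 5.44 and 5.16, and Cdh4 4.74, 5.0, 4.97 and 4.60 in that order.

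Dach2 had 5.38 in C2C12-Galgt2 myotubes and 4.80 in C2C12-Galgt2 myoblasts, and 5.92 and 5.37 in the arrays labelled C2C12 myotube and myoblast, so it was higher by 0.58 and 0.55 in the array labelled myotube. For its second probe set these differences were 0.58 and 1.69. The labels of the untransfected pair are in doubt, since all 12 myotube differentiation genes were lower in the array labelled C2C12 myotube than in that labelled myoblast (Myh8 by 4.12, Mef2c by 1.95 on the log2 scale), while all 12 were higher in C2C12-Galgt2 myotubes than myoblasts (Myh8 by 4.64, Mef2c by 4.40). Dach2 thus did not go the same way as differentiation genes in both lines if those genes are taken as the guide, and it gives no settled direction. Between C2C12-Galgt2 myotubes and myoblasts no member changed by 2-fold in its brightest probe set, and 5.47% of all genes did. Paired by these doubtful labels, the C2C12-Galgt2 arrays differed from the C2C12 arrays by -0.57 (myoblast) and -0.54 (myotube) for Dach2. The second Dach2 probe set gave -0.03 and -1.14. Any other member's brightest probe set differed by no more than 0.68 in size. With the untransfected labels exchanged, Dach2 in C2C12-Galgt2 myotubes (5.38) would stand beside 5.37, and in C2C12-Galgt2 myoblasts (4.80) beside 5.92.

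**Figure D5:**
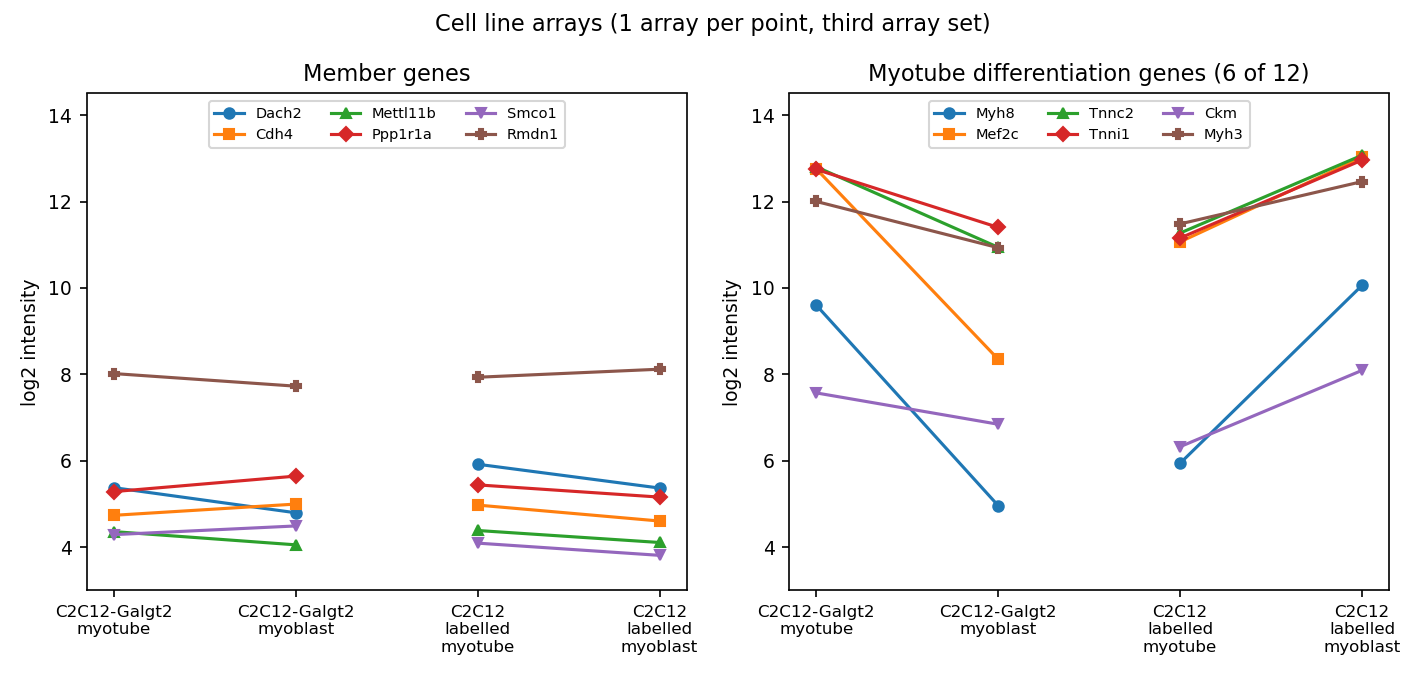
Log2 intensity (y axis) of the 6 member genes (left) and of 6 of the 12 myotube differentiation genes (right) in C2C12-Galgt2 and C2C12 arrays, with 1 array per point and a line joining each myotube array to its myoblast array. Members other than Rmdn1 lie between 3.81 and 5.92, and the differentiation genes rise towards the myotube array in C2C12-Galgt2 and towards the array labelled myoblast in C2C12.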

How the data were processed

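Each deposited value is the intensity of 1 probe set, linear, from 3.9 to 24269. GCOS and RMA are named in the submitters' processing notes, without version or order, and detection calls were not used here. Amplification started from 25 ng of RNA per the labels' protocols. Arrays have no read depth, and their number limits the precision.

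Values were taken as log2. Probe sets were named through the supplied platform annotation: 34958 carry 1 gene symbol, 932 several and 9211 none listed. The last 2 kinds were left out of the gene values, and those that are not controls entered only the fit over probe sets. Each of 18194 genes is shown by its probe set of highest mean over the muscle arrays. The limma model (version 3.58.1, in R 4.3.3) took in all 12 muscle arrays, with 1 mean per group and eBayes moderation. It was fitted over genes and, separately, over probe sets. Its two-sided p-values were adjusted by the Benjamini-Hochberg method over the 18194 genes (or over the 45037 probe sets that are not controls), with 0.05 as the threshold. The script was tested on simulated data with known changes. Errors are standard errors of the gene fit, and in the figure of the 14 member probe sets those of the probe set fit.

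The members, the gene lists and the motifs were chosen with earlier results of these data known. Named beside the members are up to 3 called genes per pathway list and comparison (or that of smallest p where none passed), the 3 largest other falls per comparison against wild type and the 2 most similar genes per member. The similar genes were sought among non-member genes whose mean in the first set was above the median of all genes. Chrng in mdx, Myog and Chrna1 in transgenic mdx muscle, Myh4, the later values of genes already named and the cell line examples were named after their values were seen. Alternatives were 2 array normalizations, fits of a set alone, each array left out, the replicate number as a block, 2 choices of probe set, a filter on dim genes and a trend in eBayes. No label says that a replicate number marks a pair, and deviations of same-numbered arrays correlated between -0.44 and 0.54 in the first set and at -0.05 between AAV-Galgt2 and PBS, where shared mice are possible.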

Additional observations from a re-analysis of the deposited data

Results flagged for a closer look

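For 2 genes the probe set of highest mean had opposite directions in the 2 backgrounds in every array. These differences were not tested because the arrays took part in choosing the genes, and substrain differs within them too. Rmdn1 was higher in both transgenic mdx arrays than in both mdx arrays (0.84 on the log2 scale, or 0.43 without mdx replicate 2 and 0.39 with its 6 probe sets averaged, of which 4 overlapped between the groups), whereas it was lower in both transgenic arrays than in both wild-type arrays (-1.63). Ppp1r1a was higher in both transgenic mdx arrays than in both transgenic arrays (0.33 ± 0.35), whereas it was lower in both mdx arrays than in both wild-type arrays (-1.72). Over all genes, 21.8% were higher without overlap in transgenic mdx than in mdx muscle, and 20.4% in transgenic mdx than in transgenic muscle. How many of all genes have such opposite directions was not counted.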

How the results depend on the processing

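Each member kept its direction against wild type under all 20 alternatives, which says little because the members were chosen by their falls in these arrays. Averaging all probe sets of a gene gave Cdh4 -1.32, -1.89 and -2.01 and Rmdn1 -1.96, -1.26 and -1.56 in mdx, transgenic and transgenic mdx muscle. With 1 array left out, AAV-Galgt2 against PBS ranged from -0.1157 (without AAV-Galgt2 replicate 2) to 0.3533 for Cdh4, and from -1.56, -0.9267 and -0.5634 to 0.0008, 0.0474 and 0.1255 (without PBS replicate 1) for Dach2, Mettl11b and Ppp1r1a. Transgenic mdx against transgenic ranged from -0.5721 to 0.0576 for Cdh4 and from -1.4261 to 0.0384 for Mettl11b, both turned without transgenic mdx replicate 1. The cause was not tested. With 1 array left out, 0 to 1 members were called in AAV-Galgt2 against PBS (1, Dach2, without PBS replicate 2), and 0 to 3 pathway genes (3 without PBS replicate 2). The 8 pathway genes called in mdx became 1 to 10 (1 without wild-type replicate 1 or mdx replicate 2, 2 without wild-type replicate 2, 4 without either AAV-Galgt2 array), the 7 in transgenic 2 to 10 (3 and 2 without wild-type replicates 1 and 2, 4 without either transgenic array), and the 18 in transgenic mdx muscle 5 to 22 (8 and 5 without wild-type replicates 1 and 2, 12 without transgenic mdx replicate 2). A fit of each set alone called 3 in mdx and 9 in transgenic mdx muscle, with fewer arrays. With the replicate number as a block, 0 members were called in AAV-Galgt2 against PBS, and 6, 9 and 15 pathway genes in mdx, transgenic and transgenic mdx muscle. All genes called with the block were 582 in mdx, against 990, and 677 in transgenic mdx against mdx, against 1107. Signal near the bottom of the scale limits the 2 dimmer Cdh4 probe sets and the dimmer Dach2 one, and in transgenic mdx replicate 1 also the brightest Cdh4 probe set and Mettl11b. Whether it also limits the brighter Dach2 probe set was not tested.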
